A study of Mus musculus with 6 samples.

Results

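The collagen alpha chain genes were described in RNA sequencing of injured Achilles tendon. All 44 genes of a list of mouse collagen chains were taken, out of 18099 genes in the table, and the choice was by gene family, not by a threshold on measured values. They were grouped by the kind of assembly their chains form: 11 fibrillar chains, 9 fibril-associated chains (FACIT), 9 basement membrane chains, 6 type VI chains of beaded filaments, 4 transmembrane chains and 5 others. The tissue came from 3 LysM-Cre; Ampkα1fl/fl mice and 3 littermates, the control group, which carry the floxed Ampkα1 alleles (Ampkα1fl/fl) without Cre. All 6 were neonatal mice with a transected Achilles tendon, collected 7 days after the injury, and 1 library was made per mouse. LysM-Cre acts in myeloid cells such as macrophages and neutrophils, so the fibroblasts that make most tendon collagen are not its target.

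Collagen molecules are trimers of alpha chains wound into a triple helix, and each chain needs glycine, the smallest residue, at every 3rd position. Fibrillar chains carry one long uninterrupted helix and assemble into the banded fibrils that bear load in tendon, where type I is the main fibril, type III marks early repair tissue and types V and XI help to start fibrils and limit their width. FACIT chains sit on fibril surfaces, type IV forms the sheet of basement membranes, and type VI forms fine beaded filaments around cells.

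The repeat is visible in the coding sequences of the annotation (GENCODE release M21, genome build GRCm38). Stretches of 90 bases from the start of the longest glycine repeat are shown for the leading fibrillar chains and for the 2 chains that differed between the genotypes, 5′ to 3′ on the coding strand, with glycine codons in capitals. They begin at codon 168 of Col1a1 (chromosome 11, plus strand), codon 164 of Col3a1 (chromosome 1, plus strand), codon 1391 of Col6a6 (chromosome 9, minus strand) and codon 312 of Col8a2 (chromosome 4, plus strand).
Col1a1: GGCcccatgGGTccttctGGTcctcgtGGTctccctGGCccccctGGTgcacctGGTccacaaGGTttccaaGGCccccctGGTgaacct
Col3a1: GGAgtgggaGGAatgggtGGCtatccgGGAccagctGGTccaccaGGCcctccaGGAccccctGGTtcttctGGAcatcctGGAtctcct
Col6a6: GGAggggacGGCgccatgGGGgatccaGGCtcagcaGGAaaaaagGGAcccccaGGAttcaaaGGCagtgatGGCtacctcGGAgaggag
Col8a2: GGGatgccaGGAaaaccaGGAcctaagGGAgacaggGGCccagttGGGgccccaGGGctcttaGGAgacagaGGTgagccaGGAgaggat
In each, every 3rd codon begins with GG. The 4 stretches differ in how long the unbroken repeat goes on after them. The longest run held between 216 and 344 glycine triplets in the 11 fibrillar chains, with 338 in Col1a1 and 344 in Col3a1. It held 37 to 87 triplets in the 6 type VI chains, with 42 in Col6a6, and 60 in Col8a2. FACIT chains reached 32 to 113 triplets and basement membrane chains 30 to 75, where the repeat is split into many shorter runs, 23 of them in Col4a1. Repeats of at least 3 triplets covered 53.5 to 77.2% of the codons of fibrillar chains and 10 to 31.9% of those of type VI chains, whose length lies mostly in von Willebrand factor A domains.

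Each library held between 18076812 and 19479895 estimated reads. The tissue carried its defining markers, as Tnmd, a membrane protein of tendon cells, lay between 3085 and 3977 TPM (a level corrected for transcript length and library size) and Scx, the tendon transcription factor, between 248 and 336 TPM in the 6 libraries. Prkaa1, which encodes AMPKα1, was at 18.3, 16.8 and 17.5 TPM in the control group and 14.9, 19.4 and 15.8 TPM in the LysM-Cre; Ampkα1fl/fl group (log2 fold change -0.08 ± 0.09 (SE), adjusted p = 0.744), so the deletion was not detectable in whole tissue. Lyz2, the gene into which LysM-Cre is inserted, fell from 1059, 1127 and 1113 TPM to 1.28, 2.3 and 1.15 TPM (log2 fold change -9.46 ± 0.17 (SE), adjusted p = 3.41e-06), so the LysM-Cre; Ampkα1fl/fl mice also had next to no Lyz2 mRNA. The libraries held different amounts of other tissues, and those amounts are given below beside the chains they move with. In whole tissue, fewer cells of a type and less RNA per cell cannot be told apart. P-values of the model fits set the group difference against the spread between mice within the groups. Permutation p-values rank that difference among all relabellings of the 6 libraries. Values of single libraries are listed below for replicates 1, 2 and 3, control group first and, after "against", LysM-Cre; Ampkα1fl/fl.

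Collagen chains made up 5.68 to 6.15% of all TPM in the control libraries and 5.49 to 5.89% in the LysM-Cre; Ampkα1fl/fl libraries. The levels spanned more than 5 orders of magnitude. Of the 44 chains, 8 had a mean above 1000 TPM, 21 above 100, 30 above 10 and 38 above 1. Fibrillar chains took 83.7 to 84.5% of the collagen TPM in the control group and 83 to 84.3% in the LysM-Cre; Ampkα1fl/fl group. Type VI chains took 8.67 to 9.34% and 8.43 to 9.28%, FACIT chains 3.72 to 3.98% and 4.15 to 4.34%, and basement membrane chains 2.44 to 2.48% and 2.28 to 2.42%. The 5 other chains had 0.541 to 0.629% and 0.766 to 0.942%, and the 4 transmembrane chains together stayed under 0.05% in each library. The groups did not overlap in the shares of the FACIT chains and the 5 other chains, both higher in the LysM-Cre; Ampkα1fl/fl libraries. The share of the basement membrane chains was lower there, also without overlap, but by little (2.44 against 2.42% at the nearest). The other shares overlapped. A share follows its abundant chains: Col8a2 alone had a mean of 189 of the 352 TPM of the 5 other chains in the control group. In the LysM-Cre; Ampkα1fl/fl group it had 299 of 481 TPM. Of the 9 FACIT chains, 5 had a log2 fold change above 0 and 4 below.

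**Figure D1:**
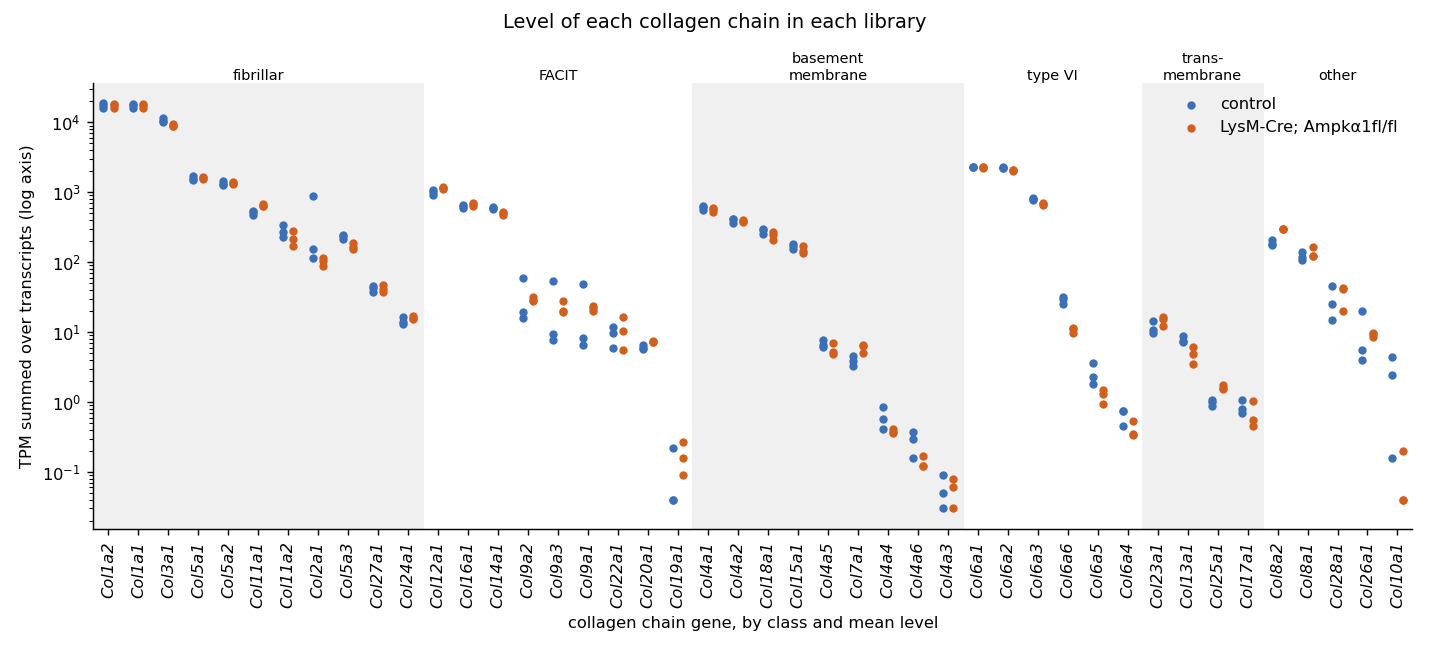
Level of each of the 44 collagen chains in TPM on a log axis, 1 point per library, with control in blue and LysM-Cre; Ampkα1fl/fl in orange, ordered by class and by mean level within the class. Col1a1 and Col1a2 lead at 16158 to 18967 TPM, Col4a3 is lowest at 0.03 to 0.09 TPM, and 1 control library stands above the rest for Col2a1 and the type IX chains.

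The genotypes were compared with the quasi-likelihood test of edgeR, fitted over all genes and called at a Benjamini-Hochberg adjusted p under 0.05. Of the 44 chains, 41 had enough reads to be tested, and Col4a3, Col4a6 and Col10a1 did not. In the LysM-Cre; Ampkα1fl/fl group 2 of the 41 chains were called (4.88%, against 0.898% of the 14261 genes tested): Col6a6 fell, where 0.568% of all genes were called lower, and Col8a2 rose, where 0.330% were called higher. With the replicate number as a block both remained called, while the share of all genes fell to 0.330% (47 genes in place of 128). DESeq2 called 13 of 43 chains (30.2%), against 4.81% of the 14300 genes it tested. These were Col7a1, Col8a2, Col11a1, Col12a1 and Col25a1 higher, and Col3a1, Col5a3, Col6a3, Col6a5, Col6a6, Col10a1, Col13a1 and Col14a1 lower. At an unadjusted p under 0.05 edgeR marked 17 of 41 chains (41.5%), against 14.5% of all genes. In 14 of 41 chains (34.1%) the 3 libraries of a group lay entirely above or below those of the other in reads scaled to library size (CPM), 6 higher and 8 lower, against 20.4% of all genes. The median log2 fold change was -0.09 over the 41 chains and -0.00 over all genes.

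**Figure D2:**
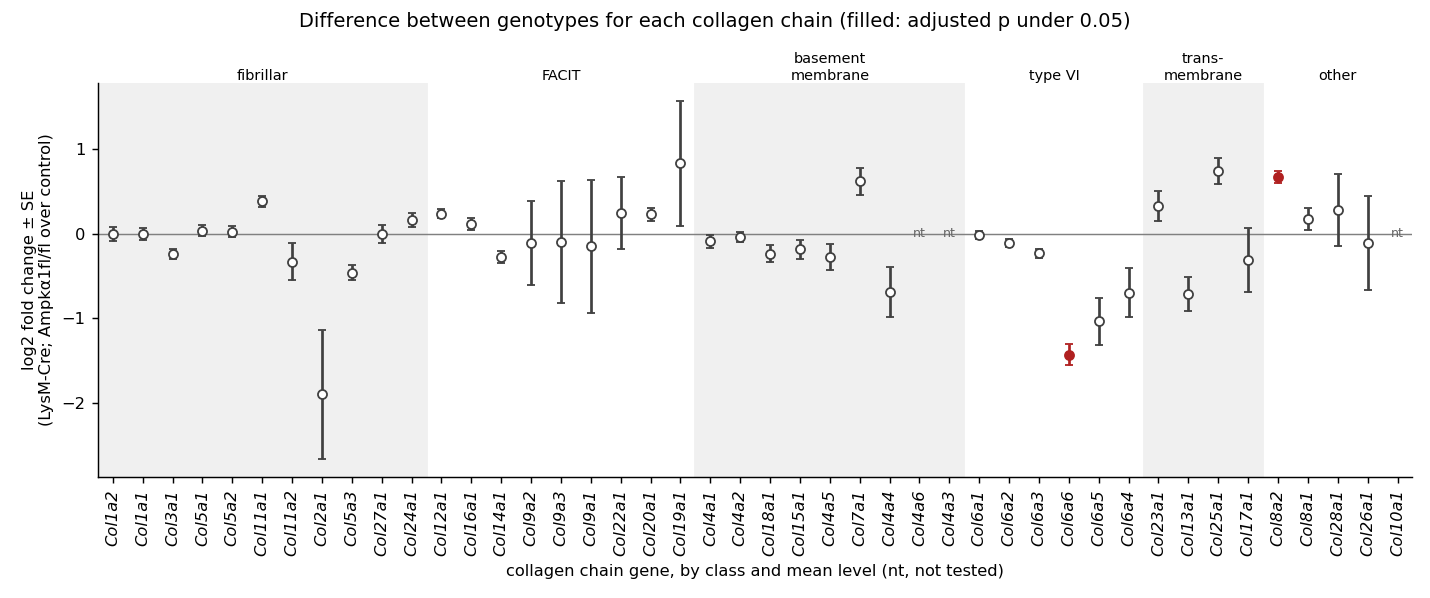
Log2 fold change of each collagen chain, LysM-Cre; Ampkα1fl/fl over control, with its standard error, by class. Col6a6 at -1.43 and Col8a2 at 0.66 are filled because their adjusted p was under 0.05. The 6 type VI chains all lie below 0, and the wide bars of Col2a1 and Col9a1 to Col9a3 mark chains in which 1 control library differed from the other 2.

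The type VI chains were the class with the lowest median, -0.46 on the log2 scale, and all 6 were below 0. Col6a6 encodes the alpha 6 chain, one of 3 long chains that can take the place of alpha 3 in the type VI trimer. It was at 29.5, 31.5 and 25.5 TPM in the control libraries and 11.6, 9.64 and 11 TPM in the LysM-Cre; Ampkα1fl/fl libraries, which is 1852, 2016 and 1567 reads against 761, 583 and 706. The highest LysM-Cre; Ampkα1fl/fl library was under the lowest control library, and the level fell 2.69-fold (log2 fold change -1.43 ± 0.12 (SE), adjusted p = 0.0118 by edgeR). The call was lost on leaving out control 1 (adjusted p = 0.0653), control 2 (adjusted p = 0.0551) or LysM-Cre; Ampkα1fl/fl 1 (adjusted p = 0.0552), with the log2 fold change between -1.33 and -1.51 in all 6 such fits.

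Col6a5, the alpha 5 chain, was at 2.26, 1.79 and 3.59 against 1.48, 1.32 and 0.95 TPM (log2 fold change -1.03 ± 0.28 (SE), adjusted p = 0.158 by edgeR, DESeq2 adjusted p = 0.015). Its groups did not overlap. Col6a4, the alpha 4 chain, was at 0.75, 0.74 and 0.46 against 0.35, 0.53 and 0.34 TPM (log2 fold change -0.69 ± 0.29 (SE), adjusted p = 0.344 by edgeR), and its groups overlapped. These 3 genes stand next to each other on the minus strand of chromosome 9, between positions 105689417 and 106096828 of GRCm38.p6, with Col6a6 first, then Col6a5 and Col6a4. Of the 5 tested genes on each side of them, 6 of 10 were lower, with log2 fold changes between -0.22 and 0.13. For these 10, edgeR called 0 and DESeq2 called 0, beside 0.898% and 4.81% of all genes. The edgeR fit marked 1 at an unadjusted p under 0.05, beside 14.5% of all genes. Non-overlapping groups were seen in 3 of the 10 (Atp2c1 higher, Wdr82 and Ppm1m lower), beside 20.4% of all genes.

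The 3 abundant type VI chains had smaller log2 fold changes. Col6a1, the alpha 1 chain, was at 2338, 2281 and 2299 against 2289.8, 2293 and 2249 TPM, with overlapping groups (log2 fold change -0.02 ± 0.05 (SE), adjusted p = 0.884 by edgeR). Col6a2, the alpha 2 chain, was at 2295, 2209 and 2212 against 2059.6, 2117 and 2036 TPM (log2 fold change -0.11 ± 0.05 (SE), adjusted p = 0.326 by edgeR). Col6a3, the long alpha 3 chain with which both assemble, was at 826, 778 and 792 against 692, 675 and 666 TPM (log2 fold change -0.23 ± 0.05 (SE), adjusted p = 0.106 by edgeR, DESeq2 adjusted p = 0.000823). Both Col6a2 and Col6a3 were lower in all 3 LysM-Cre; Ampkα1fl/fl libraries than in any control library. Within each library the ratio of Col6a3 to Col6a1 was 0.353, 0.341 and 0.344 in the control group and 0.302, 0.294 and 0.296 in the LysM-Cre; Ampkα1fl/fl group, a difference of -0.22 on the log2 scale against a pooled SD of 0.0232 (exact permutation test, two-sided, p = 0.1, the smallest that 3 against 3 can give, and 0.143 after adjustment over 10 ratios). The ratio of Col6a1 to Col6a2 was 1.02, 1.03 and 1.04 against 1.11, 1.08 and 1.1 and did not overlap either (log2 difference 0.09, exact permutation p = 0.1, adjusted 0.143). Markers of pericytes and smooth muscle were lower alongside in 7 of 8 genes, with a summed level of 1369 to 1445 TPM in the control group and 868 to 1142 TPM in the LysM-Cre; Ampkα1fl/fl group. Proliferation markers were lower in 10 of 10 genes (287 to 359 against 169.6 to 261 TPM summed) and macrophage markers in 6 of 8 (1158 to 1171 against 843 to 1064 TPM summed). None of these 26 genes was listed at 0 in every library, and edgeR called 0 of them. At an unadjusted p under 0.05 it marked 6 of the pericyte and smooth muscle, 10 of the proliferation and 4 of the macrophage markers, and DESeq2 called 3, 8 and 3. Over all genes these shares were 14.5% and 4.81%. The part of these markers in the type VI levels was not tested.

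**Figure D3:**
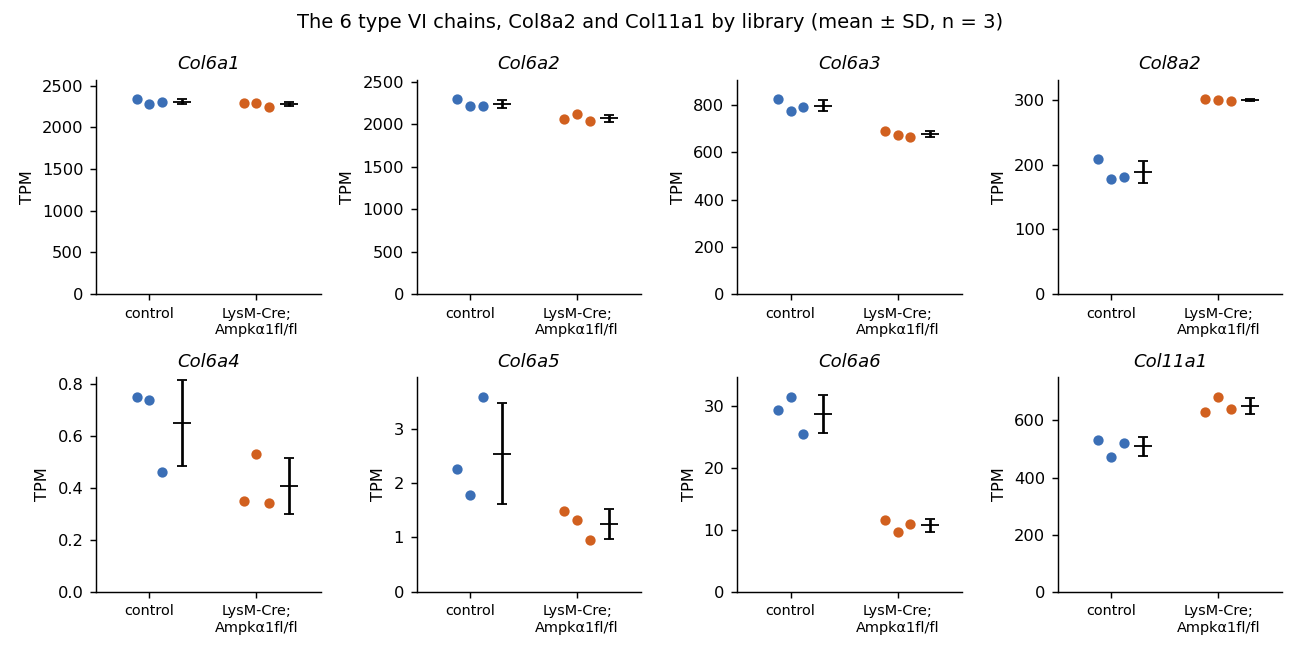
TPM of the 6 type VI chains, Col8a2 and Col11a1 in each library, with mean ± SD (n = 3) beside the points and each axis starting at 0. Col6a6 lies at 25.5 to 31.5 TPM in control and 9.64 to 11.6 TPM in LysM-Cre; Ampkα1fl/fl libraries, Col8a2 at 178 to 208 and 298 to 301 TPM, while Col6a1 overlaps at 2249 to 2338 TPM.

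Col8a2 encodes the alpha 2 chain of type VIII, a short-chain collagen that forms hexagonal lattices and is best known from Descemet's membrane of the cornea. It was at 208, 178 and 180.2 TPM in the control libraries and 301, 299 and 298 TPM in the LysM-Cre; Ampkα1fl/fl libraries, where the 3 values were almost the same, and it rose 1.58-fold (log2 fold change 0.66 ± 0.07 (SE), adjusted p = 0.0148 by edgeR). The call was lost on leaving out control 1 (adjusted p = 0.0512), control 2 (0.102), control 3 (0.0512) or LysM-Cre; Ampkα1fl/fl 1 (0.0938), and the log2 fold change stayed between 0.63 and 0.73. Col8a1, the other type VIII chain, was at 141, 108 and 117 against 123, 167 and 123 TPM, with overlapping groups (adjusted p = 0.624 by edgeR). Of 10 cartilage markers tested, 2 were called higher in the same fit, beside 0.330% of all genes. These were the proteoglycan Acan (log2 fold change 0.60 ± 0.08 (SE), adjusted p = 0.0298) and the matrilin Matn4 (log2 fold change 1.13 ± 0.17 (SE), adjusted p = 0.0413). Neither stayed called with the replicate block (adjusted p = 0.0634 and 0.067). Over all 12 cartilage markers the summed level was 375 to 475 TPM in the control group and 573 to 719 TPM in the LysM-Cre; Ampkα1fl/fl group. Of the 10 tested, 6 were higher and 4 lower, with log2 fold changes from -3.20 to 1.13. At an unadjusted p under 0.05 edgeR marked 6, beside 14.5% of all genes, and DESeq2 called 5, beside 4.81%. None of the 12 was at 0 in every library, and their part in the level of Col8a2 was not tested.

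Type I collagen did not separate the groups. Col1a1, the alpha 1 chain, was at 17699.9, 16313 and 18503 TPM in the control libraries and 17896, 16235 and 18201 TPM in the LysM-Cre; Ampkα1fl/fl libraries. Its log2 fold change was within its error (log2 fold change -0.0045 ± 0.07 (SE), adjusted p = 0.988 by edgeR). Col1a2, the alpha 2 chain, was at 17486, 16218 and 18967 against 17804, 16158 and 18372 TPM (log2 fold change -0.01 ± 0.08 (SE), adjusted p = 0.976 by edgeR). The sign of both was not fixed, since leaving out control 3 or LysM-Cre; Ampkα1fl/fl 2 turned it, at values of 0.03 to 0.07. The protein trimer holds 2 alpha 1 chains for each alpha 2 chain, whereas the ratio of Col1a1 to Col1a2 TPM was 1.01, 1.01 and 0.976 in the control group and 1.01, 1 and 0.991 in the LysM-Cre; Ampkα1fl/fl group, near 1 in each library (exact permutation p = 1).

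Col3a1, the homotrimer chain of early repair tissue, was at 11736, 10231 and 10392 against 9476, 9022 and 8934 TPM. All 3 LysM-Cre; Ampkα1fl/fl libraries were below the lowest control library, yet the difference did not pass the edgeR threshold (log2 fold change -0.24 ± 0.06 (SE), adjusted p = 0.14), while DESeq2 gave an adjusted p of 0.0179. The ratio of Col3a1 to Col1a1, which does not depend on scaling between libraries, was 0.663, 0.627 and 0.562 in the control group and 0.529, 0.556 and 0.491 in the LysM-Cre; Ampkα1fl/fl group. The groups did not overlap, the difference of -0.23 on the log2 scale stood against a pooled SD of 0.107, and it was lower in all 3 pairs of same-numbered libraries (exact permutation p = 0.1, adjusted 0.143).

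The minor fibrillar chains went different ways. Col11a1, an initiator of thin fibrils that cartilage and developing tendon both use, was at 533, 472 and 522 against 629, 682 and 641 TPM, with no overlap, just outside the threshold (log2 fold change 0.38 ± 0.06 (SE), adjusted p = 0.0565 by edgeR, DESeq2 adjusted p = 6.74e-07). Col5a3, the alpha 3 chain of type V, was at 247, 234 and 215 against 165, 191 and 153 TPM, lower in each LysM-Cre; Ampkα1fl/fl library (log2 fold change -0.46 ± 0.08 (SE), adjusted p = 0.0698 by edgeR, DESeq2 adjusted p = 2.11e-05). Without LysM-Cre; Ampkα1fl/fl 2 it was the only further chain called. Col5a1 and Col5a2, the main type V chains, had means of 1586 ± 117 and 1623 ± 59.7 TPM and of 1349 ± 103 and 1369 ± 40.1 TPM (SD, n = 3 in each group), with log2 fold changes of 0.03 and 0.02. The ratio of Col11a1 to Col5a1 was 0.31, 0.304 and 0.351 in the control group and 0.375, 0.419 and 0.41 in the LysM-Cre; Ampkα1fl/fl group, higher in each of the latter (log2 difference 0.32, exact permutation p = 0.1, adjusted 0.143). The ratio of Col5a1 to Col1a1, 0.0969, 0.0953 and 0.0805 against 0.0939, 0.1 and 0.0858, overlapped between the groups (exact permutation p = 0.7). Col11a2, Col24a1 and Col27a1 overlapped between the groups, at means of 281 ± 57.2, 14.5 ± 1.56 and 42.2 ± 4.19 TPM in the control group and 220.2 ± 54.1, 16.1 ± 0.794 and 41.8 ± 5.18 TPM in the LysM-Cre; Ampkα1fl/fl group.

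**Figure D4:**
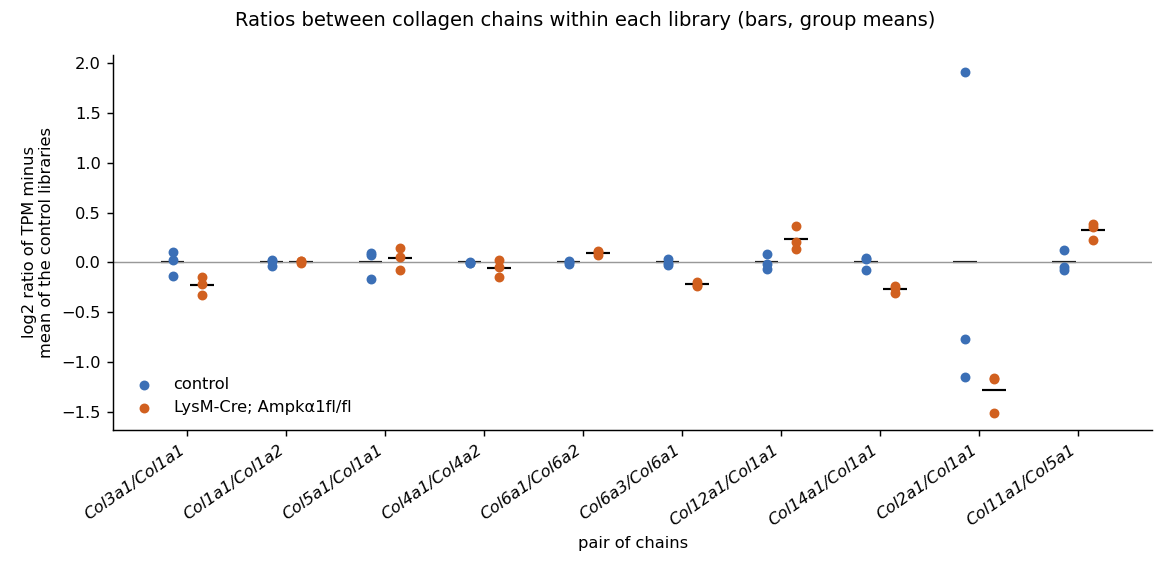
Log2 ratio of the TPM of 2 collagen chains in each library, minus the mean of the control libraries, for the 10 ratios tested; black bars are group means. Col1a1/Col1a2 stays near 0, Col3a1/Col1a1, Col6a3/Col6a1 and Col14a1/Col1a1 lie lower in all 3 LysM-Cre; Ampkα1fl/fl libraries, Col12a1/Col1a1 and Col11a1/Col5a1 lie higher, and control 2 stands far above the rest for Col2a1/Col1a1.

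Col2a1, the cartilage fibril chain, was set by 1 library. It was at 113, 874 and 155 TPM in the control libraries and 89.3, 102 and 116 TPM in the LysM-Cre; Ampkα1fl/fl libraries (log2 fold change -1.89 ± 0.76 (SE), adjusted p = 0.316 by edgeR). Without control 2 its log2 fold change was -0.37 (adjusted p = 0.565). Relative to Col1a1 it was at 0.0064, 0.0536 and 0.00836 against 0.00499, 0.00631 and 0.00637 (exact permutation p = 0.1, adjusted 0.143). The gene has 2 main transcripts, which differ in exon 2, an alternative exon that encodes a cysteine-rich von Willebrand factor C domain. The form with it (IIA) is known from precursors of chondrocytes and the form without it (IIB) from differentiated chondrocytes. Exon 2 has 204 bases, all coding, at chr15:98000403-98000606 on the minus strand of GRCm38, and it is shown 5′ to 3′ on the coding strand with its 10 complete cysteine codons in capitals, because the presence of these bases separates the 2 transcripts.
Col2a1 exon 2: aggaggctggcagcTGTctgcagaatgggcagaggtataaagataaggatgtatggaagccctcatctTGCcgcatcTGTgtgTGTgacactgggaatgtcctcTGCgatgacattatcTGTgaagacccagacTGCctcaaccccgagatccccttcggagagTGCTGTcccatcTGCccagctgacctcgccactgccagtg
The transcript with exon 2 lay at 71.8, 67 and 88.2 TPM in the control libraries and 55.2, 55.4 and 68.7 TPM in the LysM-Cre; Ampkα1fl/fl libraries, and control 2 did not stand apart. The transcript without it lay at 40.5, 807 and 65.8 against 33.5, 45.7 and 46.2 TPM. It made up 92.3% of the TPM of Col2a1 in control 2 and 35.8 to 44.6% in the other 5 libraries, so the excess in control 2 was in the form that lacks the exon. The split between transcripts is an estimate by the authors' counting, and reads away from exon 2 match both.

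The type IX chains, which decorate type II fibrils, had the same high library. They were singled out after their values were seen. Col9a1 was at 8.32, 48 and 6.63 TPM in the control group and 19.8, 22.1 and 23.5 TPM in the LysM-Cre; Ampkα1fl/fl group. Col9a2 was at 15.8, 59.6 and 19.4 against 29, 27.9 and 32.1 TPM, and Col9a3 at 7.78, 53.3 and 9.32 against 19.8, 27.8 and 19.7 TPM. In each of the 3 genes control 2 was highest, controls 1 and 3 were lowest, and the LysM-Cre; Ampkα1fl/fl libraries lay between. The log2 fold changes of Col9a1, Col9a2 and Col9a3 were -0.15, -0.11 and -0.10 with all libraries and 1.56, 0.77 and 1.40 without control 2 (adjusted p = 0.0591, 0.185 and 0.0985 by edgeR), and they also turned positive with the replicate block (0.55, 0.16 and 0.45). Of 12 cartilage markers, 8 were highest in control 2 among the control libraries, and Acan, Sox9, Matn4 and Epyc were not. Among the 8, and chosen after their values were seen, Cnmd, a chondrocyte membrane protein, was at 2.91, 41.8 and 1.46 TPM in the control group and at 1.37 to 1.93 TPM in the LysM-Cre; Ampkα1fl/fl group, Matn1 had 1, 71 and 0 reads in the control libraries, and Snorc 1, 24 and 0. Their part in the Col2a1 and type IX levels was not tested.

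Col9a1 also has 2 starts on the plus strand of chromosome 1. The upstream start gives the long chain with an amino-terminal globular domain, the form of hyaline cartilage, and the downstream start, within an intron of the long form, gives a chain of 680 codons in place of 921, known from the vitreous of the eye. The 229 bases that end just before the first base of the gene in RefSeq, and the matching window of the downstream form, are shown because the transcripts from the 2 starts differed between libraries. They are chr1:24177360-24177588 and chr1:24194953-24195181 of GRCm38.p6, from RefSeq, 5′ to 3′ on the plus strand.
Col9a1 upstream start: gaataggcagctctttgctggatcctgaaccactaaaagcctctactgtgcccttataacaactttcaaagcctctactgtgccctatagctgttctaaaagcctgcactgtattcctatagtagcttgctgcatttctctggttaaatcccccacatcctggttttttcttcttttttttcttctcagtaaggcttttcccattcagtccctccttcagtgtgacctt
Col9a1 downstream start: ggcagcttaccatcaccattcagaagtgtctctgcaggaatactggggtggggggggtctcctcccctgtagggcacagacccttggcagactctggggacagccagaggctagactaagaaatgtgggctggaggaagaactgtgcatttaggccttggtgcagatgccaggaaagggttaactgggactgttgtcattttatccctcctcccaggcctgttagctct
The transcript from the upstream start was at 0.1, 29.3 and 0 TPM in the control libraries and 0.29, 0.45 and 0.31 TPM in the LysM-Cre; Ampkα1fl/fl libraries, so it was all but limited to control 2. The transcript from the downstream start was at 8.22, 18.7 and 6.63 against 19.5, 21.6 and 23.2 TPM. Control 2 lay below all 3 LysM-Cre; Ampkα1fl/fl libraries for this form and above both other control libraries.

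**Figure D5:**
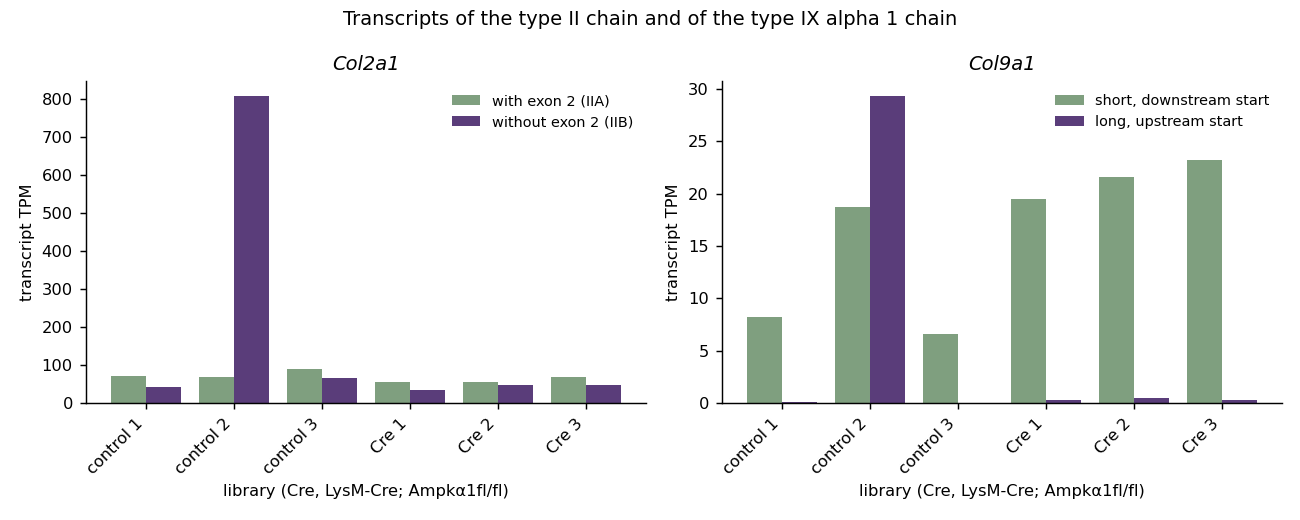
TPM of the 2 main transcripts of Col2a1 (left) and of Col9a1 (right) in each of the 6 libraries; Cre stands for LysM-Cre; Ampkα1fl/fl, and the bars start at 0. In control 2 the Col2a1 form without exon 2 reaches 807 TPM against 33.5 to 65.8 TPM elsewhere, and the long Col9a1 form 29.3 TPM against at most 0.45 TPM elsewhere.

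Col12a1 was the most abundant FACIT chain, a large bridging collagen of tendon and ligament. It was at 1063, 912 and 1002 TPM in the control libraries and 1165, 1182 and 1132 TPM in the LysM-Cre; Ampkα1fl/fl libraries, without overlap (log2 fold change 0.23 ± 0.06 (SE), adjusted p = 0.128 by edgeR, DESeq2 adjusted p = 0.00288). Col14a1, its close relative, went the other way, at 624, 579 and 602 against 498, 473 and 525 TPM (log2 fold change -0.27 ± 0.07 (SE), adjusted p = 0.142 by edgeR, DESeq2 adjusted p = 0.00736). Relative to Col1a1, Col12a1 was at 0.0601, 0.0559 and 0.0541 against 0.0651, 0.0728 and 0.0622, and Col14a1 at 0.0352, 0.0355 and 0.0326 against 0.0278, 0.0291 and 0.0288, with log2 differences of 0.23 and -0.27. Neither ratio overlapped between the groups, and both had the smallest possible exact permutation p of 0.1. Col16a1 was at 662, 594 and 632 against 714, 638 and 689 TPM, with overlap. Col20a1 was low and higher in each LysM-Cre; Ampkα1fl/fl library, at 6.62, 6.02 and 5.75 against 7.21, 7.3 and 7.36 TPM (adjusted p = 0.232 by edgeR). Col22a1, a chain of the muscle-tendon junction, was at 6.02, 9.64 and 11.9 against 10.5, 5.56 and 16.4 TPM. Skeletal muscle markers differed widely between libraries, with a summed level of 413 to 6764 TPM in the control group and 2379 to 20076 TPM in the LysM-Cre; Ampkα1fl/fl group; all 14 were detected and had a log2 fold change above 0, 0 were called by edgeR, by DESeq2 or at an unadjusted p under 0.05, and their part in the level of Col22a1 was not tested. Col19a1, the FACIT chain with the largest log2 fold change, had 4, 4 and 21 against 28, 9 and 16 reads, or 0.04, 0.04 and 0.22 against 0.27, 0.09 and 0.16 TPM, and its groups overlapped (log2 fold change 0.83 ± 0.74 (SE), adjusted p = 0.669 by edgeR).

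The basement membrane chains were mostly below 0, 6 of 7 tested, with a median log2 fold change of -0.19, and edgeR called 0. It marked 2 at an unadjusted p under 0.05, Col18a1 lower and Col7a1 higher, beside 14.5% of all genes. DESeq2 called 1, Col7a1, which was higher, beside 4.81% of all genes. Col4a1, which with Col4a2 makes the network common to all basement membranes, was at 623, 562 and 639 against 599, 531 and 579 TPM (log2 fold change -0.09 ± 0.08 (SE), adjusted p = 0.65 by edgeR). Col4a2 was at 409.9, 367 and 420.4 against 406, 385 and 375 TPM, and the ratio of Col4a1 to Col4a2 did not differ beyond the spread (exact permutation p = 0.4). Col15a1 and Col18a1, proteoglycan collagens of vessel and muscle basement membranes, had means of 170.4 ± 14 and 282 ± 23.6 TPM in the control group and 149 ± 17.4 and 239.6 ± 31.1 TPM in the LysM-Cre; Ampkα1fl/fl group, both with overlap. Endothelial markers were lower in 9 of 10 genes, at 600.3 to 664 against 579.9 to 608 TPM summed, with none at 0 and 0 called by edgeR. At an unadjusted p under 0.05 it marked 3, beside 14.5% of all genes, and DESeq2 called 1, beside 4.81%. The part of endothelial markers in these levels was not tested.

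Col7a1, the chain of the anchoring fibrils under epithelia, was the exception in its class. It was at 3.82, 3.26 and 4.54 against 6.48, 4.96 and 6.33 TPM, higher in each LysM-Cre; Ampkα1fl/fl library (log2 fold change 0.62 ± 0.16 (SE), adjusted p = 0.142 by edgeR, DESeq2 adjusted p = 0.0123). Keratinocyte markers had summed levels of 18, 36.8 and 22.8 against 12.3, 12.7 and 85.7 TPM, with 4 of 8 tested higher and 4 lower. None was at 0 in every library, and 0 were called by edgeR, by DESeq2 or at an unadjusted p under 0.05. The part of keratinocyte markers in the level of Col7a1 was not tested. The other type IV chains were low. Col4a4 was at 0.41, 0.58 and 0.85 against 0.37, 0.36 and 0.41 TPM (log2 fold change -0.69 ± 0.30 (SE), adjusted p = 0.358 by edgeR), and Col4a5 at 6.63, 6.1 and 7.73 against 6.88, 5.17 and 4.84 TPM. Col4a3 had 7, 2 and 4 against 5, 2 and 6 reads, and Col4a6 9, 18 and 20 against 7, 9 and 7 reads, too few to test.

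Transmembrane collagens were scarce. Col23a1, the most abundant, was at 10.8, 9.59 and 14.6 against 16.3, 12.2 and 15.2 TPM (log2 fold change 0.33 ± 0.17 (SE), adjusted p = 0.457 by edgeR). Col13a1, a chain of adhesion sites and the neuromuscular junction, was lower in each LysM-Cre; Ampkα1fl/fl library, at 7.32, 7.51 and 8.74 against 3.47, 4.92 and 6.06 TPM (log2 fold change -0.71 ± 0.20 (SE), adjusted p = 0.164 by edgeR). Col25a1, known from neurons and muscle, was higher in each, at 0.89, 1.07 and 0.99 against 1.78, 1.61 and 1.51 TPM (log2 fold change 0.74 ± 0.15 (SE), adjusted p = 0.0914 by edgeR). DESeq2 placed both just inside the threshold, with adjusted p = 0.0419 and 0.0491. Col17a1, the hemidesmosome chain of skin, was at 0.8, 1.06 and 0.7 against 0.56, 0.46 and 1.05 TPM, with overlap.

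Among the remaining chains, Col10a1, the chain of hypertrophic cartilage, had 115, 65 and 4 reads in the control libraries and 1, 5 and 1 reads in the LysM-Cre; Ampkα1fl/fl libraries. It did not pass the filter of the edgeR fit, DESeq2 gave an adjusted p of 0.000519, and the groups overlapped because control 3 was as low as the LysM-Cre; Ampkα1fl/fl libraries. Bone markers were lower in 7 of 8 genes tested, with summed levels of 46.5 to 79.1 against 10.1 to 13.7 TPM. None was at 0 in every library, and edgeR called 0. At an unadjusted p under 0.05 it marked 6, beside 14.5% of all genes, and DESeq2 called 6, beside 4.81%. The part of bone markers in the level of Col10a1 was not tested. Ibsp, a bone sialoprotein, was at 10.8, 5.9 and 1.62 against 0, 0.21 and 0.19 TPM. Of the 9 bone markers, 6 (Ibsp among them) were highest in control 1 among the control libraries, as Col10a1 was, 1 in control 2, and Bglap and Bglap2, the osteocalcin genes, in control 3. The summed level was highest in control 3, where Col10a1 was at its lowest of the control libraries. Col28a1, a chain found around Schwann cells, was at 25.4, 14.9 and 45.3 against 41.2, 42.6 and 20.1 TPM, and Col26a1 at 5.56, 3.95 and 20.3 against 9.51, 8.39 and 9.77 TPM. The 7 Schwann cell markers used here summed to 464 to 5019 against 774 to 2204 TPM, with none at 0 and 0 called by edgeR, by DESeq2 or at an unadjusted p under 0.05. For both Col28a1 and this sum, control 2 was the lowest and control 3 the highest of the 6 libraries, and LysM-Cre; Ampkα1fl/fl 3 was the lowest of its group. The part of nerve tissue in these levels was not tested.

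The genes that make, bind and cleave collagen were counted in the same fit. Of 31 genes of collagen synthesis and secretion, 14 were higher and 17 lower, and edgeR called 1, beside 0.898% of all genes. It marked 7 at an unadjusted p under 0.05, beside 14.5% of all genes, and DESeq2 called 4, beside 4.81%. The groups did not overlap in 9 of the 31, 3 higher and 6 lower, beside 20.4% of all genes. The gene called by edgeR was Pcolce2, an enhancer of procollagen C-terminal cleavage, at 33.9, 36.4 and 40.8 against 17.3, 19 and 21.8 TPM (log2 fold change -0.94 ± 0.12 (SE), adjusted p = 0.0298 by edgeR). The 3 members with the highest mean CPM, the chaperone Serpinh1, P4hb, the beta subunit of prolyl hydroxylase, and the lysyl oxidase family member Loxl2, had log2 fold changes of -0.05, 0.07 and -0.29, and none of the 3 passed the test (adjusted p = 0.800, 0.702 and 0.193 by edgeR). DESeq2 called Loxl2 (adjusted p = 0.0356), which was lower in each LysM-Cre; Ampkα1fl/fl library than in any control library. It also called Plod1 higher (adjusted p = 0.00352) and Pcolce lower (adjusted p = 0.00845). Pcolce was at 1509, 1388 and 1503 against 1277, 1230 and 1273 TPM (log2 fold change -0.23 ± 0.06 (SE), adjusted p = 0.146 by edgeR). Of 9 collagen receptors tested, 5 were higher and 4 lower, and edgeR called 0. At an unadjusted p under 0.05 it marked 6, beside 14.5% of all genes, and DESeq2 called 3, beside 4.81%. Of these 9, the groups did not overlap in 2 higher and 3 lower receptors, beside 20.4% of all genes. Itga11, among the higher, had a log2 fold change of 0.50 ± 0.09 (SE), with adjusted p = 0.0614 by edgeR and 1.86e-06 by DESeq2. Mrc2, also higher, had 0.31 ± 0.10 (SE), with adjusted p = 0.223 by edgeR and 0.03 by DESeq2. Itga2, among the lower, had -0.41 ± 0.12 (SE), with adjusted p = 0.181 by edgeR and 0.0404 by DESeq2. Itgb1, the receptor gene with the highest mean CPM, had 0.0058 ± 0.06 (SE), with adjusted p = 0.977 by edgeR. Of 9 proteases and inhibitors of collagen cleavage, 5 were higher and 4 lower, and edgeR called 0. It marked 4 at an unadjusted p under 0.05, beside 14.5% of all genes, and DESeq2 called 4, beside 4.81%. The groups did not overlap in 4 of the 9, all of them higher, beside 20.4% of all genes. The most abundant of these, Mmp2, Mmp14 and Timp2, had log2 fold changes of 0.40, 0.40 and 0.30 with adjusted p = 0.126, 0.171 and 0.137, and each was higher in all 3 LysM-Cre; Ampkα1fl/fl libraries than in any control library.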

How the data were processed

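RNA was sequenced by the study on a BGISEQ platform from 6 mice, 3 per group. For each of 65053 RefSeq transcripts the authors deposited estimated counts, TPM values, FPKM values and a normalized count (a signal equal to the count times 1 factor per library). The submitters' processing notes name build GRCm38.p6, and the aligner and counter are not given in the sources used here. The FPKM, normalized count and 8 group average columns entered no result. Transcript values (estimated counts and TPM) were added up per gene (18099 genes, 99.72% matched to a symbol), and counts were rounded to whole reads. Levels between genes were compared in TPM, except that members of the other gene lists were picked for naming by mean CPM.

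Genotypes were compared by the quasi-likelihood F test of edgeR 4.0.16 under R 4.3.3, with TMM scaling, the filterByExpr filter and Benjamini-Hochberg adjustment over all genes at 0.05. Standard errors are the log2 fold change divided by the square root of F. DESeq2 1.42.0, limma 3.58.1 on log2(TPM + 0.5), other scalings and filters, the replicate block and leaving out each library were alternatives, and the fits were tested on simulated data. Ratios of TPM were compared by exact permutation tests, two-sided, with Benjamini-Hochberg adjustment over the 10 ratios. Replicate numbers come from the labels, and a fit with them as a block was also run. Deviations from the group mean correlated weakly between same-numbered libraries (r of 0.184, 0.118 and 0.31), which does not establish a pairing. Control 1 correlated more with LysM-Cre; Ampkα1fl/fl 2 (r of 0.501), and only 1 control library correlated best with its own number. Full statistics were given for Col1a1, Col1a2, Col3a1, the leading chain of each class, each chain called, and the 6 chains with the largest log2 fold change in each direction. The members and lists were chosen with earlier results of these data known. One marker gene is not reported here. Sequences come from GENCODE M21 and from RefSeq promoters, which cover 35 of the 44 genes. Each library held 18076812 to 19479895 reads, and chains with few reads carry a larger counting error.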

Additional observations from a re-analysis of the deposited data

How the results depend on the processing

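The 2 chains called stayed called under RLE and upper-quartile scaling, no low-count filter, at least 10 counts in every library, the replicate block and limma on TPM; the block changed no chain's call. DESeq2 called 13. Leaving out 1 library gave between 0 and 3 chains. Over all genes the count of 128 became 688 with DESeq2, 47 with the replicate block, 69 with limma on TPM, and 8 to 276 without 1 library. The share of collagen in all TPM, 5.98% and 5.76% on average in the control and LysM-Cre; Ampkα1fl/fl groups, became 8.75% and 8.41% when computed as counts per kb of the longest transcript. The cause was not tested. Among the ratios, the chains with full statistics and the type IX chains, signs that turned were those of Col1a1 (0.0010 with RLE, 0.0026 with DESeq2, -0.0550 to 0.0667 without 1 library), Col1a2 (-0.0667 to 0.0656 without 1 library), Col9a1, Col9a2 and Col9a3 (0.55, 0.16 and 0.45 with the block, 0.62, 0.16 and 0.47 with limma, and from -0.60 to 1.56, from -0.44 to 0.77 and from -0.52 to 1.40 without 1 library), the ratio of Col1a1 to Col1a2 (a log2 difference of 0.0035, and -0.0127 to 0.0139 without 1 library) and that of Col5a1 to Col1a1 (0.0397, and -0.0456 to 0.0989 without 1 library). The other chains were compared with the block and DESeq2 only, where Col26a1 turned (-0.11, and 0.20 with the block). Reads per library limit chains such as Col19a1 and Col4a3, where a few reads move the value. With 3 libraries in each group, an exact permutation test cannot give a p below 0.1.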

Other observations

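The transcript assigned to Col6a5 differed between the groups, a value noticed after the data were seen. The curated RefSeq transcript had 2.20, 1.79 and 3.59 TPM in the control libraries and was listed at 0 in all 3 LysM-Cre; Ampkα1fl/fl libraries, whereas a predicted transcript had 0.06 TPM, 0 and 0 in the control libraries and 1.48, 1.32 and 0.95 TPM in the LysM-Cre; Ampkα1fl/fl libraries. The gene has few reads, and the split comes from the authors' counting.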
